A study of Homo sapiens with 11 samples.

Results

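The transcripts described here are 9 genes of the death receptor pathway, chosen by name and read in both deposited abundance tables: the receptors TNFRSF10A, TNFRSF10B and FAS, the adaptor FADD, the initiator caspase CASP8, its inhibitor CFLAR, the inhibitor of apoptosis proteins (IAPs) XIAP and BIRC2, and the kinase DAPK2. All 9 were listed among the 14458 genes of the knockdown table and among the 11062 genes of the overexpression table. The 11 RNA-seq libraries came from a single established line, ARP1, grown from human multiple myeloma of IgA kappa type. The 4 groups were PHF19 shRNA (shPHF19, n = 3), its scramble control (n = 3), PHF19 overexpressed from the PCDH plasmid (OE, n = 2) and the empty PCDH vector (EV, n = 3). Lentivirus made in HEK293T cells carried the OE and EV plasmids, and the OE cells were sorted before RNA was taken. shRNA and scramble libraries were grouped by title, since their genotype tag repeats the overexpression wording. Neither the delivery and number of hairpins nor any sorting of EV cells is stated in the labels. Descriptions of OE libraries end in F and those of EV libraries in S, with no meaning given, so whatever the letters mark and the group cannot be told apart. No label says that replicates were separate cultures, so p-values measure the spread between these libraries, which may be technical.

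Death receptors sit in the plasma membrane and are opened by ligands of the tumour necrosis factor family: TNFRSF10A and TNFRSF10B bind TRAIL, and FAS binds FAS ligand. The bound receptors recruit FADD, which draws in caspase-8 for activation. CFLAR (c-FLIP), a relative of caspase-8, competes for a place in this complex, while XIAP blocks caspases directly and BIRC2 (cIAP1) is a ubiquitin ligase of receptor complexes. DAPK2 is a calcium- and calmodulin-regulated kinase of the death-associated family. TRAIL receptor agonists have been studied as a way to kill myeloma cells.

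Abundances are values of FPKM type, normalised for gene length and depth by the authors, with no unit in the headers and no counts, so read depth is unknown. The tables were made separately, and shPHF19 was set against scramble and OE against EV, each within its own table. Of 12 plasma cell markers 11 were listed in the knockdown table, with a summed level of 1461, 1878 and 1788 in shPHF19 replicates 1 to 3 and 1832 to 2049 in scramble libraries. SDC1 was 120 to 256 and XBP1 214 to 525 over the 6 libraries, whereas CD38 was 2.16 to 8.43 and CD27 0.08 to 0.41. The sum was lowest in shPHF19 replicate 1, as were SDC1, XBP1, IRF4, CD38, SLAMF7 (5.42) and MZB1 (104). JCHAIN was highest there (735), and TNFRSF17, PRDM1, POU2AF1 and CD27 were not lowest there. Markers of B, T and NK, monocyte and stromal cells stayed low there, with sums of at most 2.81 in any library. Of 3 erythroid markers 2 were listed (HBB and ALAS2), with a summed level of 1.32 to 4.30 in shPHF19 and 0.70 to 1.13 in scramble libraries, and in the overexpression table HBB alone was 3.09 and 12.9 in OE and 0 to 0.755 in EV libraries. There the monocyte gene LYZ was 0.396 and 6.17 in OE and 0 to 0.0572 in EV libraries, and the plasma cell gene IGJ 9837 and 2623 in OE and 1686 to 1939 in EV libraries. IRF4, SLAMF7 and POU2AF1 were also higher in both OE libraries than in any EV library. The other plasma cell markers listed there, SDC1, TNFRSF17, PRDM1, XBP1, CD38 and MZB1, overlapped between the groups and were highest in EV replicate 5. The part of these markers in the results was not tested. On the leading principal component shPHF19 replicate 1 stood apart at 36.3, with the other shPHF19 libraries at 8.49 and 10.5 and scramble libraries between -21.6 and -15.7. In the overexpression table EV replicate 5 lay at 22.8, on the side of the OE libraries (12.6 and 13.6), away from EV replicates 3 and 4 (-28.0 and -21.1). PHF19 itself was 75.2, 103 and 108 in shPHF19 replicates 1 to 3 against 113, 152 and 123 in scramble (log2 fold change -0.44, SE 0.17, limma adjusted p = 0.147), so the targeted gene was lower without passing, and it passed with the replicate block of equal-numbered libraries (adjusted p = 0.0445). It was 227 and 213 in OE against 111, 119 and 115 in EV libraries (0.93, SE 0.094, adjusted p = 0.0438). OE and EV did not overlap, but the call was lost in 11 of 15 alternatives, among them leaving out OE replicate 1 or 2 or EV replicate 3 or 4 (adjusted p = 0.264, 0.209, 0.149 and 0.167), quantile normalisation (0.166) and leaving out genes listed at 0 (0.156).

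DAPK2 was the member that moved after knockdown, and the promoter windows of DAPK2, FADD and CASP8 are shown because DAPK2 rose, FADD varied little in the knockdown table and CASP8 had the fewest CG pairs. PHF19 is a Polycomb-like protein, one of the accessory subunits of the PRC2 methyltransferase, and this family binds DNA rich in CG pairs. Each window runs from 250 bases before to 50 bases after the annotated start (RefSeq, GRCh38.p14, another build than the hg19 of the alignment), is written on the gene's own strand, and has each CG pair in capitals.
DAPK2 (chr15:64046436-64046735, minus strand): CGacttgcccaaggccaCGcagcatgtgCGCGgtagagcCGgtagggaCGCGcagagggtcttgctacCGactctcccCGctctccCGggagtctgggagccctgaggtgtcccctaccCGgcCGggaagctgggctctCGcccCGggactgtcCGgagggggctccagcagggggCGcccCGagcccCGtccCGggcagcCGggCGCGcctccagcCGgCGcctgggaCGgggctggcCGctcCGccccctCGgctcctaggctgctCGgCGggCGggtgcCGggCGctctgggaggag
FADD (chr11:70203046-70203345, plus strand): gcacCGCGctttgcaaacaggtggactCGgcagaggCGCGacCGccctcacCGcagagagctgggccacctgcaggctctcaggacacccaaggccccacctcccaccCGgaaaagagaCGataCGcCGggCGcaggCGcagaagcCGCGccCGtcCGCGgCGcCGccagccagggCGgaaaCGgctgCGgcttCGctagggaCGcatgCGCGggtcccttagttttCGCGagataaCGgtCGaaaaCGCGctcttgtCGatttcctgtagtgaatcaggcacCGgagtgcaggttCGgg
CASP8 (chr2:201233213-201233512, plus strand): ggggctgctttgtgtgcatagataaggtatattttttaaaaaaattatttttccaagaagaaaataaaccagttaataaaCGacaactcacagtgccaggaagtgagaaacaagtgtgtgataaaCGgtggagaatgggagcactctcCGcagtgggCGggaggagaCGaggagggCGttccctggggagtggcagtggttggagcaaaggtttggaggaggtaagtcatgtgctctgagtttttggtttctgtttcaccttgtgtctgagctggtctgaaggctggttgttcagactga

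Windows were at hand for 7 of the 9 members, and where a gene has several starts the first window of the table was used. The last 30 bases of the DAPK2 window, unlike those of the other 6, were found in no GENCODE v29 transcript of the gene. The start used is that of RefSeq, and this match cannot show whether GENCODE holds a start nearby. DAPK2 held 33 CG pairs, FADD 36 and BIRC2 40, against a median of 14 over the windows of 27305 genes. CFLAR held 21, FAS 18, XIAP 10 and CASP8 6. The share of all windows with at least as many was 16.9% for DAPK2, 12.5% for FADD and 65.6% for CASP8. Windows with 33 or more CG pairs were those of DAPK2, FADD and BIRC2. DAPK2 rose, while FADD and BIRC2 did not pass the test, although BIRC2 was higher in every shPHF19 library than in any scramble library. The part of CG content in these levels was not tested. The C/EBP-ATF element, searched as TGATGNAA on both strands, was in none of the 7 windows and in 3.67% of all windows, which says only that these letters are not in these stretches.

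Knockdown libraries were compared to see how the pathway's transcripts stood with PHF19 under shRNA. A single member passed over all 10900 genes tested: DAPK2 rose. The other genes tested did not pass, although TNFRSF10B was higher and TNFRSF10A lower in a way that passed once the replicate number was used as a block. FADD, CASP8 and XIAP had fold changes within or near 1 standard error of 0. Of 8 members tested, 1 was called higher and 0 lower by limma, where 5.51% of all genes tested were called, 4.24% higher and 1.28% lower. At an unadjusted p under 0.05 there were 3 higher and 0 lower, where 24.1% of all genes passed. The median log2 fold change was 0.14 over these 8 and 0.034 over all genes tested. The plot of abundances in the knockdown table shows each library.

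**Figure D1:**
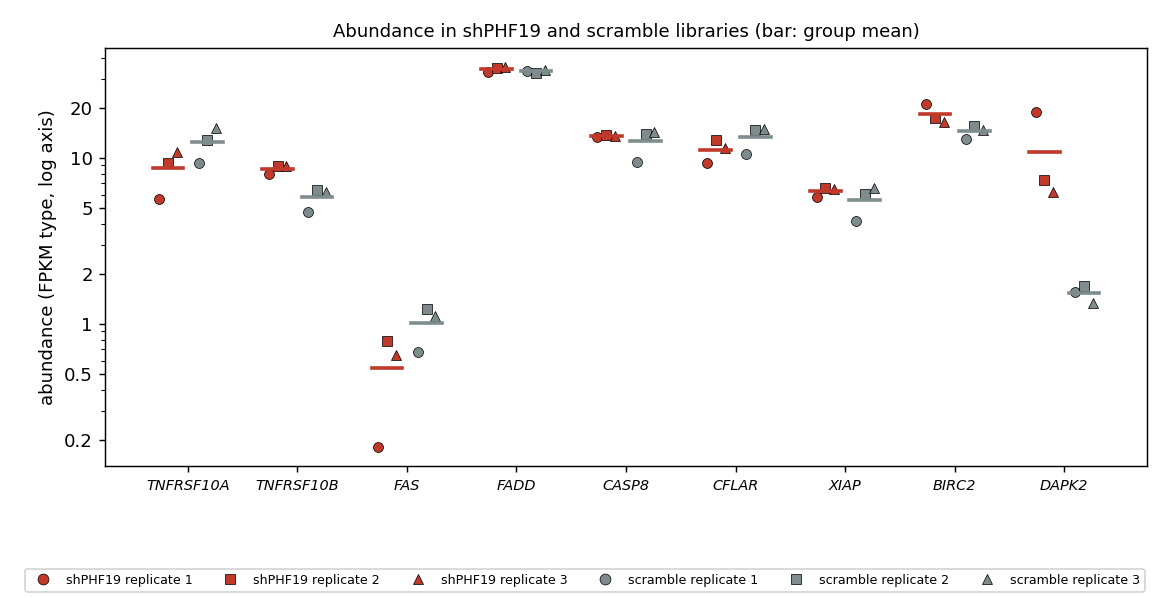
Abundance (FPKM type, log axis) of the 9 members in 3 shPHF19 libraries (red, left) and 3 scramble libraries (grey, right), with group means as bars and replicate numbers as marker shapes. DAPK2 lies at 6.24 to 18.84 in shPHF19 and 1.34 to 1.69 in scramble libraries, while FADD stays at 32.38 to 35.27 throughout.

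DAPK2 was 18.84, 7.35 and 6.24 in shPHF19 replicates 1 to 3, against 1.55, 1.69 and 1.34 in scramble replicates 1 to 3. Every shPHF19 library lay above every scramble library, and shPHF19 replicate 1 was far above the other pair. The means were 10.8 ± 6.98 in shPHF19 and 1.53 ± 0.176 in scramble libraries (SD, n = 3 each), a ratio of 7.08. The log2 fold change of value + 1, a scale that understates changes of low genes, was 2.07 (SE 0.33, limma adjusted p = 0.0152), which ranked 10 by size among the 10900 genes. Without shPHF19 replicate 1 it was 1.62 (adjusted p = 0.000621). Without scramble replicate 1, 2 or 3 the size held at 2.08, 2.12 and 2.02, but the call was lost (adjusted p = 0.0598, 0.0602 and 0.0539). Over all genes the count called was then 54, 58 and 164, against 601 with every library.

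In bulk RNA, a change in every cell and a change in the make-up of the culture cannot be told apart. DAPK2 was highest in the shPHF19 library in which PHF19 was lowest (75.2), the summed erythroid level highest (4.30) and the summed plasma cell level lowest (1461). DAPK2 overlaps a gene on the opposite strand in the annotation, and whether reads were counted by strand is not stated. The 3 genes whose profile over the 6 libraries was most like that of DAPK2 were CYP1A1, COPZ2 and CPQ, at a root mean square difference of 0.29, 0.30 and 0.31 on the centred log2 scale among 10873 candidates. Each was highest in shPHF19 replicate 1, which follows from choosing them by likeness to DAPK2. COPZ2, for example, was 113, 53.7 and 59.9 in shPHF19 and 22.6, 24.6 and 22.6 in scramble libraries.

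The TRAIL receptors pointed in opposite directions. TNFRSF10B was 7.93, 8.93 and 8.90 in shPHF19 replicates 1 to 3, against 4.70, 6.41 and 6.25 in scramble libraries. The groups did not overlap. The log2 difference was 0.51 with a standard error of 0.15, which missed the threshold (adjusted p = 0.0844) and met it under the replicate block (adjusted p = 0.0365). TNFRSF10A was 5.61, 9.36 and 10.88 in shPHF19 libraries, against 9.29, 12.77 and 15.06 in scramble libraries. Its groups overlapped, yet each shPHF19 library lay below the scramble library of the same number, and its value of -0.49 (SE 0.24) met the threshold under the block (adjusted p = 0.0338) and not without it (adjusted p = 0.234). Without shPHF19 replicate 1 the log2 fold change of TNFRSF10A was -0.25 (adjusted p = 0.481). With the block 3 of 8 members were called, DAPK2, TNFRSF10B and TNFRSF10A, where 11.9% of all genes tested were called, 8.20% of all genes higher.

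A ratio of 2 genes inside 1 library hardly depends on how libraries are scaled. The log2 ratio of TNFRSF10B to TNFRSF10A was 0.46, -0.064 and -0.28 in shPHF19 replicates 1 to 3, against -0.91, -0.94 and -1.20 in scramble libraries. The listed value of TNFRSF10A was thus above that of TNFRSF10B in every scramble library, with a mean log2 ratio of -1.02 ± 0.161 (SD, n = 3). In shPHF19 libraries the order was mixed. The difference was 1.06, with groups that did not overlap, and the exact two-sided permutation p of 0.1 is the smallest that 3 against 3 libraries can give. Of all single genes tested, 32.0% also had groups that did not overlap, and the share over other gene pairs was not computed. The difference was 0.85 to 1.22 with each library left out in turn.

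The 3 genes nearest to TNFRSF10B in profile were PPP2R3C, FASTK and RNF166, at a root mean square difference of 0.046, 0.046 and 0.048. FASTK was 53.5, 56.7 and 61.8 in shPHF19 and 35.0, 42.9 and 43.7 in scramble libraries (adjusted p = 0.0541). FAS, the third receptor, was the lowest member in the knockdown table. It was 0.18, 0.79 and 0.65 in shPHF19 libraries, against 0.68, 1.23 and 1.12 in scramble libraries. With values under 1 in most libraries it was not tested, and with no filter its log2 fold change was -0.40 (adjusted p = 0.267).

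**Figure D2:**
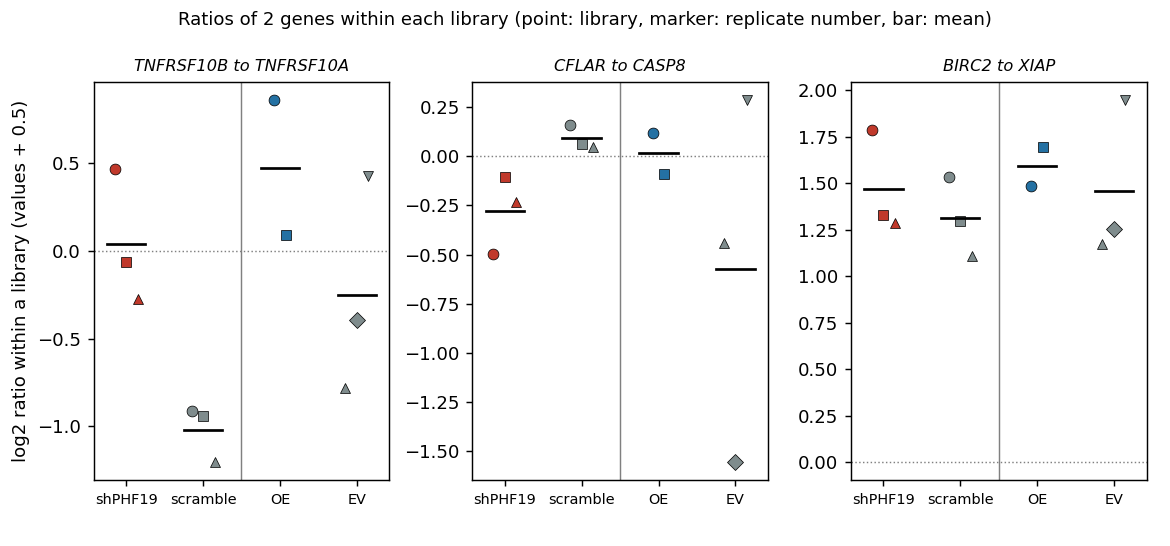
Log2 ratio of 2 members within each library (values + 0.5) for shPHF19, scramble, OE and EV libraries, with a vertical line between the separately normalised tables, bars at group means and marker shapes for replicate numbers. TNFRSF10B to TNFRSF10A is -0.28 to 0.46 in shPHF19 and -1.20 to -0.91 in scramble libraries, whereas OE and EV libraries overlap in all 3 ratios.

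FADD, the adaptor, was the most abundant member and hardly varied. It was 32.89, 34.93 and 35.27 in shPHF19 libraries, against 33.36, 32.38 and 33.81 in scramble libraries (log2 fold change 0.049, SE 0.11, adjusted p = 0.821). CASP8 was 13.33, 13.75 and 13.58 in shPHF19 libraries, against 9.40, 13.93 and 14.39 in scramble libraries. Only scramble replicate 1 lay low, and without it the log2 fold change turned to -0.059, against 0.12 with all libraries (SE 0.17, adjusted p = 0.688). CFLAR was 9.31, 12.76 and 11.50 in shPHF19 libraries, against 10.57, 14.60 and 14.89 in scramble libraries (-0.23, SE 0.17, adjusted p = 0.443). The groups overlapped, with each shPHF19 library below the scramble library of its number.

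CFLAR and CASP8 can be set against each other because both values are per length. The log2 ratio of CFLAR to CASP8 was -0.50, -0.10 and -0.23 in shPHF19 libraries, against 0.16, 0.065 and 0.048 in scramble libraries. By listed value CFLAR was below CASP8 in every shPHF19 library and above it in every scramble library, there at a log2 ratio of at most 0.16. The difference of -0.37 had an exact two-sided permutation p of 0.1, again the smallest possible, and was -0.45 to -0.26 with each library left out in turn. How many other gene pairs would give groups apart was not computed here either.

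Among the IAPs, BIRC2 was 21.21, 17.28 and 16.51 in shPHF19 libraries, against 13.04, 15.58 and 14.64 in scramble libraries. Its groups did not overlap, and the log2 fold change of 0.32 (SE 0.14) did not pass (adjusted p = 0.197, and 0.138 with the block). XIAP was 5.79, 6.58 and 6.46 in shPHF19 libraries, against 4.17, 6.05 and 6.53 in scramble libraries (0.16, SE 0.17, adjusted p = 0.603). XIAP turned to -0.0035 without scramble replicate 1, the lowest library. The log2 ratio of BIRC2 to XIAP was 1.47 ± 0.277 in shPHF19 and 1.31 ± 0.215 in scramble libraries (SD, n = 3 each), with overlapping groups (exact permutation p = 0.6).

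Groups did not overlap for 3 of the 8 members tested, DAPK2, TNFRSF10B and BIRC2, all higher in shPHF19, where 32.0% of all genes tested did not overlap, 18.9% with shPHF19 higher and 13.0% with shPHF19 lower. In the authors' deposited table the p-value of the same comparison, from a test that no header names, was 4.03e-144 for DAPK2, 8.18e-17 for TNFRSF10B, 2.64e-14 for BIRC2, 2.49e-09 for TNFRSF10A, 2.5e-05 for FAS, 0.00104 for XIAP, 0.0977 for CASP8, 0.34 for FADD and 0.587 for CFLAR. For OE against EV the authors' deposited table gave 0.0504 for TNFRSF10B and 0.142 to 0.72 for the other 8. PHF19 itself had an authors' p-value of 2.03e-46 for shPHF19 against scramble and 4.38e-12 for OE against EV, again from a test that no header names. The order of levels is a description, with no test. In shPHF19 libraries it ran FADD (34.4), BIRC2 (18.3), CASP8 (13.6), CFLAR (11.2), DAPK2 (10.8), TNFRSF10A (8.62), TNFRSF10B (8.59), XIAP (6.28) and FAS (0.54), and the neighbours from CFLAR to TNFRSF10B overlapped in range. In scramble libraries it ran FADD (33.2), BIRC2 (14.4), CFLAR (13.4), CASP8 (12.6), TNFRSF10A (12.4), TNFRSF10B (5.79), XIAP (5.58), DAPK2 (1.53) and FAS (1.01), where BIRC2 to TNFRSF10A overlapped from neighbour to neighbour, as did TNFRSF10B and XIAP.

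**Figure D3:**
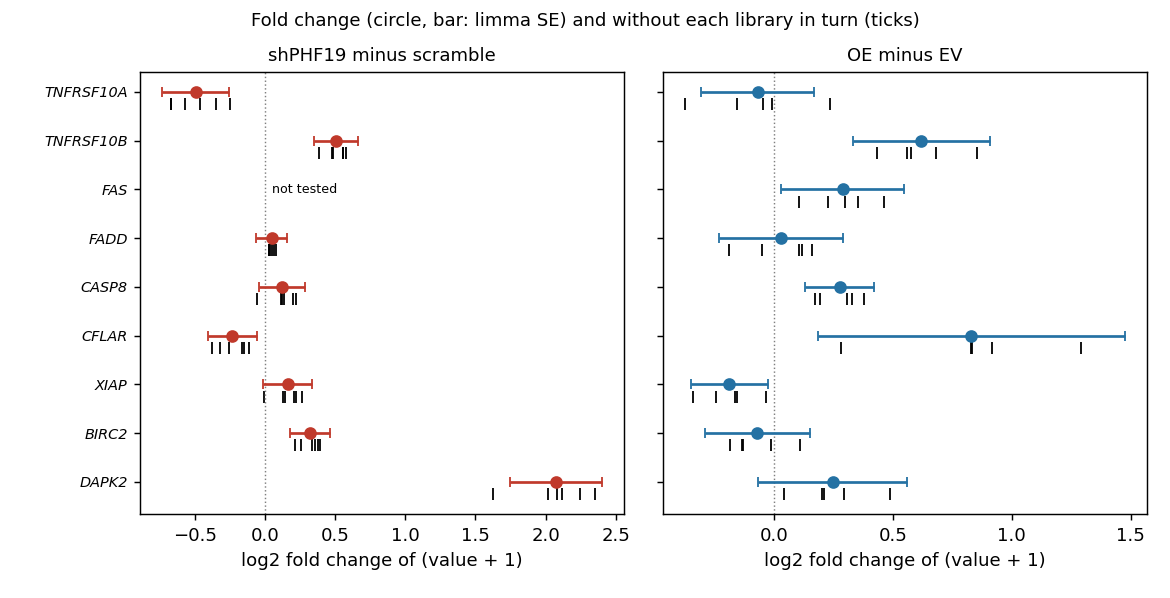
Log2 fold change of value + 1 of each member (circle, with limma's standard error as the bar) for shPHF19 minus scramble (left, red) and OE minus EV (right, blue), with black ticks for the value without each library in turn. DAPK2 after knockdown keeps 1.62 to 2.35, while CFLAR after overexpression runs from 0.28 to 1.29.

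Other genes were read from a list of 41 around extrinsic apoptosis, which also held other caspases and regulators of the TRAIL receptor genes. The list was chosen from textbook roles with earlier results of these data known, so counts over it are descriptions only. Of the 41 genes, 38 were in the knockdown table and 33 were tested. Of these 33, 4 were called higher and 0 lower by limma, where 4.24% of all genes tested were called higher and 1.28% lower. At an unadjusted p under 0.05 there were 7 higher and 7 lower, where 24.1% of all genes passed in either direction. The median log2 fold change of the 33 was -0.021. TNFRSF10C, a decoy TRAIL receptor with no death domain, rose to 9.15, 9.42 and 9.93 in shPHF19, against 6.39, 5.68 and 5.38 in scramble libraries (0.63, SE 0.14, adjusted p = 0.0315). The other decoy, TNFRSF10D, was 2.54, 3.18 and 3.53 in shPHF19, against 3.49, 4.33 and 4.90 in scramble libraries (adjusted p = 0.23). RBCK1 (HOIL-1), a subunit of the linear ubiquitin ligase, rose to 32.29, 34.71 and 39.90 in shPHF19, against 19.18, 21.97 and 20.66 in scramble libraries (0.76, SE 0.13, adjusted p = 0.0153). Its partner SHARPIN was 20.5 ± 1.72 in shPHF19 and 15.4 ± 0.429 in scramble libraries (SD, n = 3 each, adjusted p = 0.0931).

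CASP4, an inflammatory caspase, rose to 52.1, 37.1 and 30.7 in shPHF19, against 27.2, 20.1 and 20.8 in scramble libraries (0.77, SE 0.19, adjusted p = 0.0492). Leaving out shPHF19 replicate 1 or 2 or any scramble library ended this call (adjusted p up to 0.180). It was lost in 12 of 16 alternatives, among them quantile normalisation (adjusted p = 0.0772), median-of-ratios scaling (0.0830) and no filter (0.0911). Over the 6 omissions TNFRSF10C kept its call only without shPHF19 replicate 1 (adjusted p 0.0339 to 0.123). The TNFRSF10C call was also lost after quantile normalisation (0.0615) and with no filter (0.0529). RBCK1 lost its call without shPHF19 replicate 3 or any scramble library (0.00609 to 0.0710). The TNF receptors TNFRSF1A and TNFRSF1B were 22.6 ± 3.15 and 18.3 ± 6.82 in shPHF19 and 16.3 ± 4.43 and 31.4 ± 0.771 in scramble libraries (SD, n = 3 each), and met the threshold under the block, TNFRSF1A higher and TNFRSF1B lower (adjusted p of 0.0365 and 0.0439), and missed it otherwise (0.175 and 0.0799). The BH3 protein BID, which links caspase-8 to mitochondria, was 46.1 ± 3.42 in shPHF19 and 58.6 ± 3.40 in scramble libraries (SD, n = 3 each), which did not pass (adjusted p = 0.112). The TRAIL gene TNFSF10 was low, at 1.43 ± 0.734 in shPHF19 and 1.42 ± 0.615 in scramble libraries.

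DDIT3 (CHOP), a transcription factor known to act on TNFRSF10B, rose to 19.6, 29.6 and 29.9 in shPHF19, against 8.48, 11.2 and 8.08 in scramble libraries (1.41, SE 0.19, adjusted p = 0.00675). Within the shPHF19 group it was lowest in replicate 1, where TNFRSF10B (7.93) was also lowest and DAPK2 (18.84) was highest. Its call held with each of the 6 libraries left out (adjusted p 0.000602 to 0.0493). Its part in the level of any member was not tested.

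**Figure D4:**
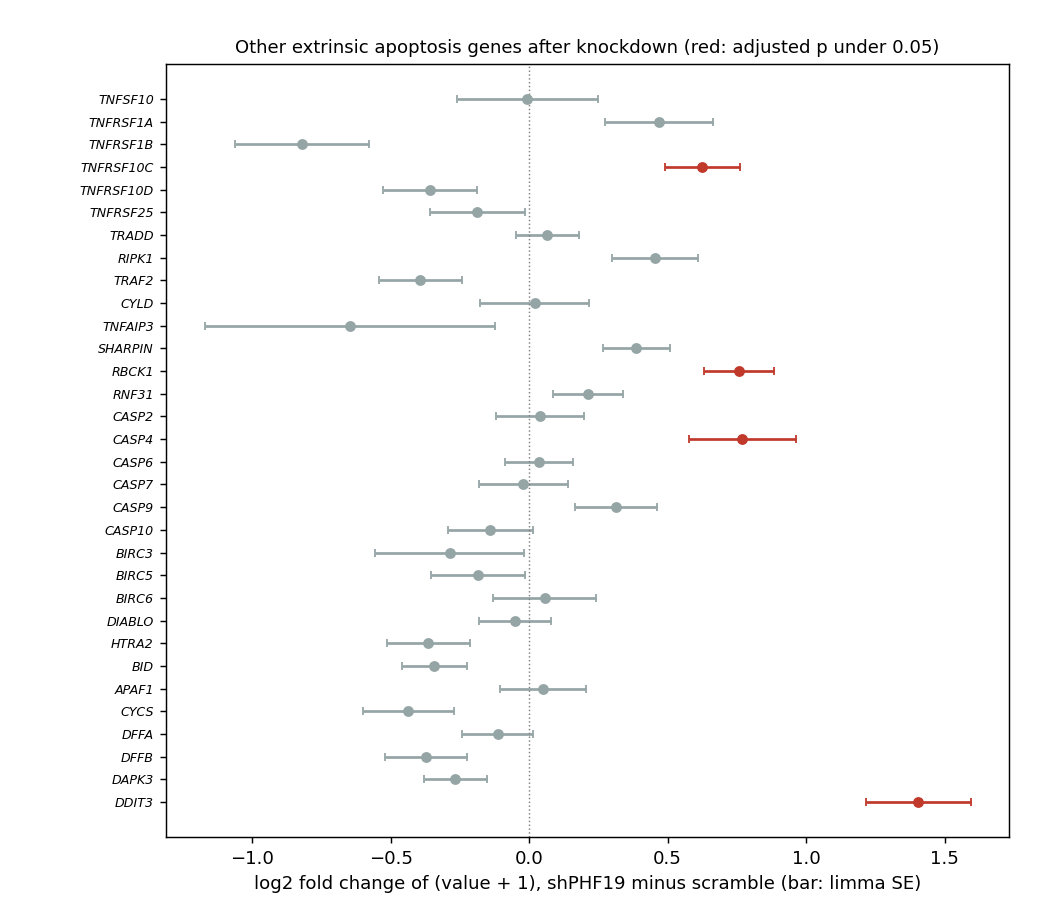
Log2 fold change of value + 1 (shPHF19 minus scramble, with limma's standard error) of genes of the extrinsic apoptosis list that were tested and are not among the 9, with 1 tested gene not drawn, ordered by role from ligand to regulators. The 4 red genes, TNFRSF10C, RBCK1, CASP4 and DDIT3, are those past an adjusted p of 0.05, and all lie to the right of 0.

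The same transcripts were then read in the OE libraries against the empty vector. None of the 9 members passed: 0 were called by limma among 10279 genes tested, where 0.914% of all genes tested were called, and 0 passed an unadjusted p under 0.05, where 11.5% of all genes did. Among the 9, CFLAR had the largest fold change with the largest standard error, and TNFRSF10B the smallest adjusted p. The median log2 fold change was 0.25 over the 9 members and 0.087 over all genes tested. After quantile normalisation the median of all genes was -0.045, so fold changes in this comparison are also given relative to the 0.087.

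TNFRSF10B was 13.9 and 12.7 in OE replicates 1 and 2, against 6.16, 7.74 and 11.9 in EV replicates 3 to 5. Both OE libraries lay above all EV libraries, EV replicate 5 only narrowly below. The log2 fold change was 0.62 (SE 0.29, adjusted p = 0.506), or 0.53 relative to the median gene. TNFRSF10A was 7.44 and 11.9 in OE libraries, against 10.9, 10.3 and 8.71 in EV libraries (-0.069, SE 0.24, adjusted p = 0.928), and turned to 0.24 without OE replicate 1. FAS was 4.41 and 3.96 in OE libraries, against 3.30, 2.29 and 4.38 in EV libraries (0.29, SE 0.26, adjusted p = 0.708).

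The log2 ratio of TNFRSF10B to TNFRSF10A was 0.86 and 0.090 in OE libraries, against -0.78, -0.39 and 0.42 in EV libraries, which overlapped (exact permutation p = 0.3, where 0.1 is the smallest possible). PHF19 was raised in this comparison and targeted by shRNA in the other, and in both TNFRSF10B was higher than in its own control without passing. Because the tables were normalised separately, the fold changes were not tested against each other.

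FADD was 20.8 and 23.3 in OE libraries, against 26.1, 24.5 and 15.7 in EV libraries (0.029, SE 0.26, adjusted p = 0.972), and turned to -0.099 after quantile normalisation and -0.044 after median-of-ratios scaling. CASP8 was 18.7 and 21.8 in OE libraries, against 17.3, 14.6 and 17.8 in EV libraries. Its groups did not overlap, and the log2 difference was 0.28 (SE 0.15, adjusted p = 0.542). CFLAR was 20.4 in each OE library, against 12.6, 4.64 and 21.8 in EV libraries. The EV libraries spread from 4.64 to 21.8, and the log2 fold change of 0.83 (SE 0.64, adjusted p = 0.654) went to 0.28 without EV replicate 4 and 1.29 without EV replicate 5.

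XIAP was 6.31 and 4.91 in OE libraries, against 6.72, 6.83 and 5.93 in EV libraries (-0.19, SE 0.16, adjusted p = 0.697). BIRC2 was 18.6 and 17.0 in OE libraries, against 15.8, 17.0 and 24.3 in EV libraries (-0.070, SE 0.22, adjusted p = 0.925). DAPK2, the gene that rose after knockdown, was 3.89 and 3.58 in OE libraries, against 1.997, 2.79 and 4.58 in EV libraries (0.25, SE 0.31, adjusted p = 0.79). Both OE libraries lay inside the range of the EV libraries. Relative to the median gene, the log2 differences were 0.74 for CFLAR, 0.20 for FAS, 0.19 for CASP8, 0.16 for DAPK2, -0.059 for FADD, -0.16 for TNFRSF10A and BIRC2, and -0.27 for XIAP.

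**Figure D5:**
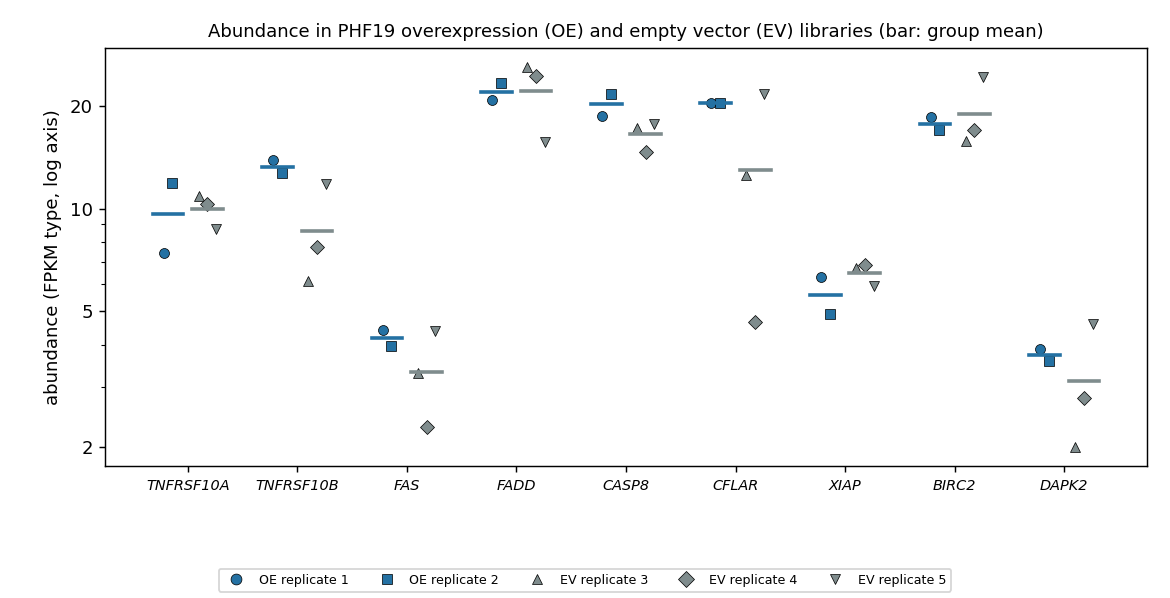
Abundance (FPKM type, log axis) of the 9 members in 2 OE libraries (blue, left) and 3 EV libraries (grey, right), with group means as bars and marker shapes for replicate numbers. EV replicate 5 (downward triangle) lies beyond the other EV libraries on the side of the OE mean for every member, for example at 4.58 for DAPK2 against 1.997 and 2.79.

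For all 9 members EV replicate 5 lay beyond EV replicates 3 and 4 on the side where OE stood, a pattern seen for 60.0% of all genes tested. Seen from EV replicates 3 and 4, this library went past the OE mean upward for DAPK2, FAS, CFLAR and BIRC2, and downward for FADD and TNFRSF10A. Without this library the groups did not overlap for 8 of 9 members, where 62.7% of all genes tested did not overlap, and none of the 9 passed (log2 fold change of TNFRSF10B 0.85, adjusted p = 0.0768). With all libraries, groups did not overlap for TNFRSF10B and CASP8, 2 of 9 members and both higher in OE, where 34.2% of all genes tested did so and 23.1% with OE higher.

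In OE libraries the levels ran FADD (22.1), CFLAR (20.4), CASP8 (20.3), BIRC2 (17.8), TNFRSF10B (13.3), TNFRSF10A (9.67), XIAP (5.61), FAS (4.19) and DAPK2 (3.73), where, of neighbours in this order, only CFLAR and CASP8 overlapped, and FADD (20.8 and 23.3) also overlapped CASP8 (18.7 and 21.8). In EV libraries they ran FADD (22.1), BIRC2 (19.03), CASP8 (16.6), CFLAR (13.001), TNFRSF10A (9.99), TNFRSF10B (8.59), XIAP (6.49), FAS (3.33) and DAPK2 (3.12), and every neighbouring pair overlapped except XIAP and FAS. The genes nearest in profile over the 5 libraries were CAPN6, CLIC4 and FBXL16 for TNFRSF10B (root mean square difference 0.042 to 0.051) and RPS24, GPR3 and RPL36 for CASP8 (0.038 to 0.040), among 8664 candidates.

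Of the 41 pathway genes 31 were in the overexpression table and 30 were tested. Of these, 0 were called by limma, where 0.914% of all genes tested were called. At an unadjusted p under 0.05 there were 2 higher and 1 lower, where 11.5% of all genes passed in either direction. BIRC6, a giant IAP, was 9.40 and 7.66 in OE libraries, against 19.99, 17.1 and 16.4 in EV libraries (-0.98, SE 0.16, adjusted p = 0.173). SHARPIN was 14.2 and 15.9 in OE libraries, against 7.75, 8.56 and 8.50 in EV libraries (0.79, SE 0.12, adjusted p = 0.165). CYLD, a deubiquitinase of receptor complexes, was 10.4 and 12.7 in OE libraries, against 5.93, 7.10 and 8.60 in EV libraries (0.61, SE 0.20, adjusted p = 0.393). The groups of all 3 genes were apart without passing. Groups did not overlap for 7 of the 30 pathway genes tested, 5 of them higher in OE. Over all genes tested, 34.2% had groups that did not overlap, 23.1% with OE higher. DDIT3 is listed at 0 in both OE libraries and in EV replicates 3 and 4, and at 69.9 in EV replicate 5, and CASP4 is listed at 0 in OE replicate 2 and at 21.4 in OE replicate 1, against 21.2, 21.1 and 19.1 in EV libraries. The plasma cell genes TNFRSF17 and MZB1 are also listed at 0 in EV replicates 3 and 4, and no member was listed at 0. Whether a listed 0 in this table is a failed estimate was not tested.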

How the data were processed

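Abundances of FPKM type for 11 ARP1 libraries were deposited by the authors in 2 tables, with no unit in the headers. Alignment used TopHat against hg19, per the submitters' processing notes. No source at hand names the quantifier, annotation or gene filter. The p-value per gene in each table is from the authors' own comparison, per the file headers. There are no counts, so depth is unknown and no interval or floor was computed.

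Values were used as log2(value + 1). A gene was tested if it reached 1 in 3 libraries of the knockdown table or 2 of the overexpression table. Groups were compared with limma 3.58.1 in R 4.3.3 (trend and robust options, two-sided); p-values were adjusted by Benjamini and Hochberg's method across every tested gene, and called under 0.05. The fit was tested on simulated data. Symbols that had become dates, 24 after knockdown, stayed unmatched. Within-library ratios used values + 0.5 and exact two-sided permutation. Members, pathway list, markers and tests were chosen with earlier results of these data known. The text names the members, PHF19, pathway genes past the threshold (or, with none past it, up to 8 by adjusted p), and the 3 genes closest in centred log2 profile to the 2 members of smallest adjusted p in each table. TNFRSF10D, SHARPIN, TNFRSF1A, TNFRSF1B, BID and TNFSF10 after knockdown, and CASP4, DDIT3 and RBCK1 after overexpression, were named after their values were seen. The values of 1 pathway gene are not reported here.

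Deviations from the group mean correlated at 0.341, 0.270 and 0.273 between shPHF19 and scramble libraries of equal number, and at -0.277 to 0.0936 between others. Equal numbers were therefore treated as pairs in an alternative, the blocked fit, on the data and not on a label. The correlations come from the same values that the block was then used on, so they do not establish a pairing. Calls made only under the block rest on this assumed pairing. Other alternatives were scaling, filter, pseudocount, library weights, a stricter threshold and leaving out each library. In GENCODE v29, 7 of the 9 members overlap a gene on the opposite strand, all but CASP8 and BIRC2; whether the authors counted by strand is not stated, so such reads could be mixed.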

Additional observations from a re-analysis of the deposited data

How the results depend on the processing

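Of the members' log2 fold changes under each alternative, 119 of 128 after knockdown and 124 of 133 after overexpression kept their direction and their side of the threshold. The number of genes called after knockdown, 601, became 269 with no filter, 3161 with library weights, 1295 with the replicate block, 41 at an adjusted p under 0.01 and 54 to 629 with 1 library left out. Members called, 1, became 2 with library weights, 3 with the block, 0 at 0.01 and 0 to 1 with 1 library left out. Pathway genes called, 4, became 2 after quantile normalisation, 2 with no filter, 12 with library weights, 1 at 0.01 and 1 to 4 with 1 library left out, and were 6 with the block. After overexpression, the 94 genes called became 36 with a filter at 5, 61 with a pseudocount of 0.1, 1729 with library weights, 0 with genes listed at 0 left out and 107 to 350 with 1 library left out. Library weights called 1 member (TNFRSF10B, adjusted p = 0.0337) and 4 pathway genes, and leaving out 1 library called 0 members and 0 to 1 pathway genes. That gene, CASP4 without OE replicate 1, rests on a single OE library listed at 0, and whether that 0 is a failed estimate was not tested. With 1 OE library left, the spread comes from EV libraries alone and the lone library is assumed to vary like them. The cause of these shifts was not tested.

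Directions turned for CASP8 (-0.059) and XIAP (-0.0035) after knockdown without scramble replicate 1 (ranges with 1 library left out -0.059 to 0.22 and -0.0035 to 0.27), and for the BIRC2 to XIAP ratio (-0.0039, range -0.0039 to 0.27) without shPHF19 replicate 1. After overexpression FADD turned with quantile normalisation (-0.099), median-of-ratios scaling (-0.044), library weights (-0.14), without OE replicate 2 (-0.050) and without EV replicate 5 (-0.19; highest 0.16). BIRC2 turned with library weights (0.061) and without EV replicate 5 (0.11; lowest -0.18), TNFRSF10A without OE replicate 1 (0.24; lowest -0.37), and the BIRC2 to XIAP ratio without EV replicate 3 (-0.0099, range -0.0099 to 0.38). The replicate block changed the calls of PHF19, TNFRSF10A, TNFRSF10B, TNFRSF1A and TNFRSF1B and of no other member or pathway gene. For the within-library ratios the blocked sign-flip test gave an exact p of 0.25, the smallest that 3 pairs allow. No paired analysis was possible because OE and EV libraries share no replicate number, for that comparison. With 2 or 3 libraries in a group and unknown depth, a value that missed the threshold is not shown to be equal.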
